A study of Mus musculus with 19 samples.

Results

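Skeletal muscle answers its motor nerve through the nicotinic acetylcholine receptor, a channel of 5 subunits that is packed under the nerve ending at the neuromuscular junction. Described here are 10 genes of that junction, chosen by name as genes of the receptor and its clustering. They are the receptor subunit genes Chrna1, Chrnb1, Chrnd, Chrng and Chrne, and the genes Musk, Rapsn, Dok7, Lrp4 and Agrn, whose products cluster the receptor. All 10 were found among the 35598 genes measured, and all 10 passed the filter on low counts that left 15123 genes for testing. RNA was measured in 19 libraries of muscle precursor cells (myoblasts) taken from the hind limbs of mice and differentiated in culture. Cells were collected after 24 h in growth medium as dividing myoblasts (3 WT and 3 KO-labelled libraries), at 48 h as differentiated myotubes (3 WT and 2 KO-labelled) and at 72 h as fused myotubes (4 and 4). WT is the wild-type label and "KO-labelled" stands for the Glud1KO label, which the series text describes as Glud1-deficient. The deposited names mark both groups KO and add a T for the KO-labelled group; what the T stands for is not given in the sources used here, so the groups follow the labels. Glud1 encodes the mitochondrial enzyme glutamate dehydrogenase. Strain, age, sex, the Glud1 allele and how many animals gave the cells are not given in the sources used here.

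The fetal form of the receptor holds the subunits encoded by Chrna1, Chrnb1, Chrnd and Chrng, and in the adult form the epsilon subunit, encoded by Chrne, takes the place of the gamma subunit, encoded by Chrng. Agrin, the product of Agrn, is released by the nerve and also made by muscle. It binds LRP4 on the muscle surface, LRP4 activates the receptor tyrosine kinase MuSK, DOK7 binds MuSK from inside the cell and raises its activity, and rapsyn, the product of Rapsn, ties receptors together in clusters. In myoblasts that differentiate, factors of the MyoD family bind E-boxes, short DNA sites in promoters of muscle genes. The N-box is a site through which GABP, an Ets-type factor, drives junction genes at nuclei under the nerve.

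Library totals ran from 16168131 to 30742634 estimated counts. Muscle identity was plain: the summed level of 10 muscle markers was 1784.5 to 2271 CPM (counts scaled to library size and by TMM, edgeR's correction for RNA composition) in myoblasts and 26735 to 33660 CPM in myotubes. The neuron list summed to 9.12 to 20.2 CPM with Chat, Slc18a3 and Elavl4 at 0 in every library, the fibroblast list to at most 3.93 CPM and the endothelial and macrophage list to at most 2.68 CPM. The Schwann cell list reached 521 CPM in myotubes, nearly all of it Erbb3, which muscle also expresses, while Sox10 and Cdh19 stayed below 0.1 CPM on average in every myotube group. From the neuron list, Stmn2 was lower in KO-labelled libraries at 24 h and 48 h (log2 -0.89 and -2.33) and Syn1 at 48 h (log2 -0.67), at 1.01 and 3.44 CPM against 5.12 and 5.49 CPM at that stage. Markers of other cell types also changed with stage in WT. At 24, 48 and 72 h the fibroblast marker Pdgfra was 1.16, 0.366 and 2.78 CPM (log2 -1.61, then 2.90), the Schwann list gene Foxd3 0, 0.252 and 1.21 CPM, the neuron list gene Isl1 1.82, 6.66 and 5.34 CPM (log2 1.86, then -0.31) and the macrophage marker Cd68 1.45, 0.613 and 0.183 CPM (log2 -1.22, then -1.76). The part of these markers in the results was not tested. Glud1 itself did not separate the labels by CPM, which in myoblasts ran from 184 to 192 under the WT label and from 185 to 190.0 under the KO label, with overlapping ranges and adjusted p of 0.849, 0.193 and 0.748 at 24, 48 and 72 h. Which part of the gene was removed is not given, so its count does not check the label. Glud1 TPM, a level per transcript length, was lower in every KO-labelled library than in every WT library of the same stage, at 136 to 142 against 163 to 175 TPM in myoblasts. The replicates are called biological without naming animals or cultures, so the p-values below measure only the spread between these libraries.

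All subunit genes except Chrne were already on in dividing myoblasts and rose steeply by 48 h. From WT myoblasts to WT differentiated myotubes all 10 genes passed the test (edgeR quasi-likelihood test, Benjamini-Hochberg adjusted p under 0.05 over all genes tested), against 85% of all genes tested, with 9 higher (42.4% of all genes were) and Agrn lower (42.6% were). In KO-labelled cultures all 10 passed too, against 83.7% of all genes, with 9 higher (41.3%) and Agrn lower (42.5%). For this step the median log2 fold change of the 10 genes was 1.86 in WT and 1.88 in KO-labelled cultures, beside 0.02 and -0.004 over all genes. From 24 h to 72 h the counts were again 9 higher and Agrn lower in both labels, against 85.5% of all genes called in WT (42.2% higher, 43.4% lower) and 87.2% in KO-labelled cultures (42.7% higher, 44.5% lower). Between 48 h and 72 h the genes parted: in WT 2 rose and 6 fell, so 8 of 10 passed against 75.1% of all genes (37.4% higher, 37.7% lower), and in KO-labelled cultures 1 rose and 6 fell, so 7 of 10 passed against 70.2% of all genes (35.9% higher, 34.4% lower). Since most genes changed with stage, the shares of the 10 genes that changed are close to those of all genes. In bulk RNA, more cells that have differentiated and more RNA per cell cannot be told apart. Within a label, each pair of these stage changes shares the libraries of 1 stage.

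**Figure D1:**
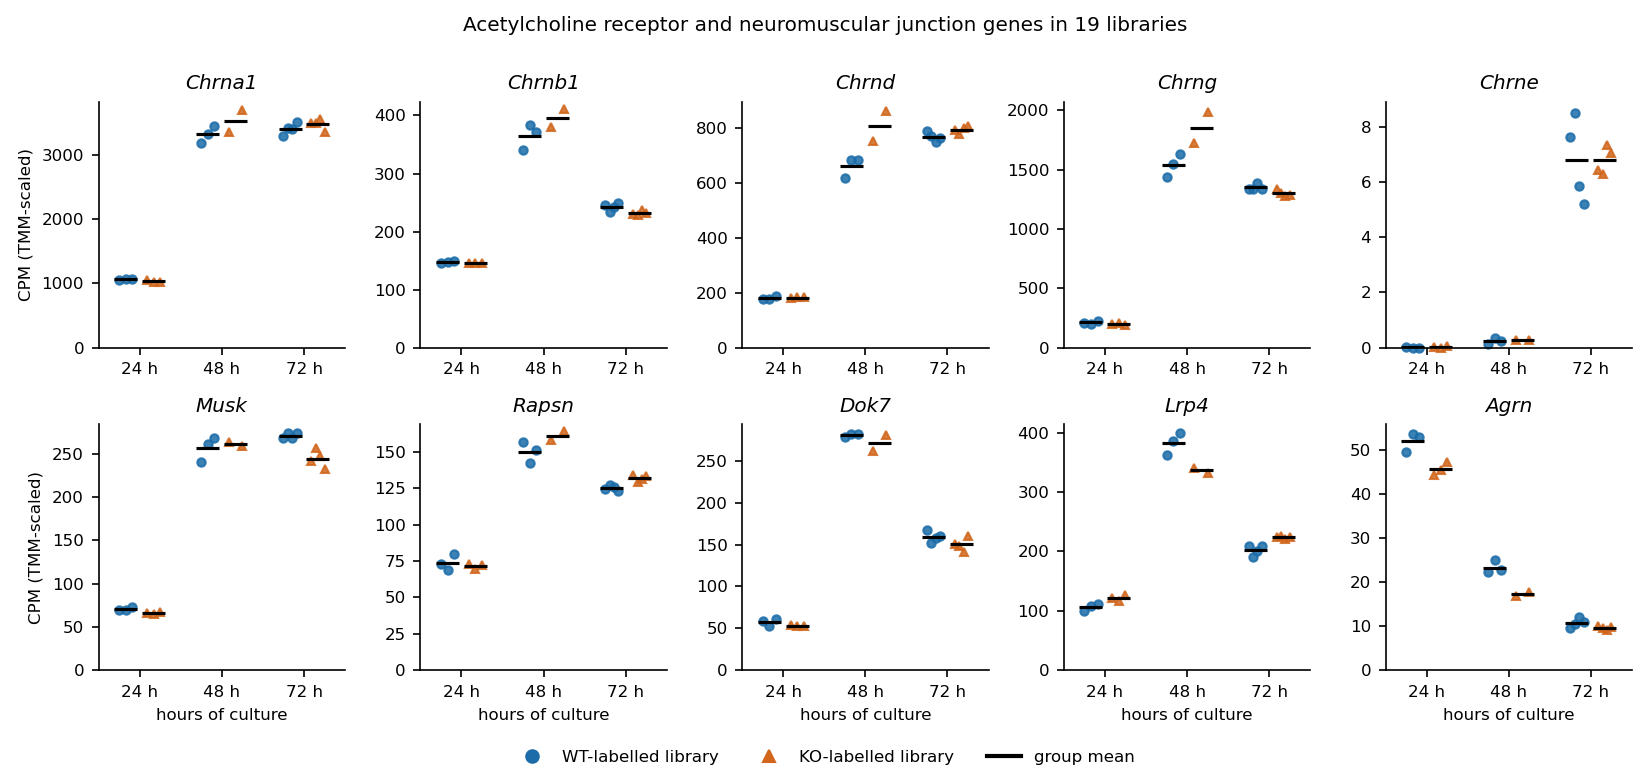
CPM of each of the 10 genes (y axis, linear from 0) against hours of culture (x axis), with 1 circle per WT and 1 triangle per KO-labelled library and a bar at the group mean. Chrne is near 0 until 72 h, when it reaches 5.19 to 8.50 CPM, and Agrn is the gene that is highest at 24 h.

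Chrna1, on chr2:73563215-73580338 (GRCm38, minus strand), encodes the alpha subunit, which carries most of the acetylcholine-binding surface. It was the most abundant of the 10 per transcript length in all 6 groups, at 404 ± 8.52 TPM (SD, n = 3) in WT myoblasts and 1156 ± 43.7 TPM (SD, n = 3) in WT differentiated myotubes. Its CPM was 1051, 1073 and 1061 in the WT myoblast libraries and 3179.8, 3325 and 3448 in the WT differentiated libraries. The groups were far apart, and the rise was 3.12-fold (log2 1.64, SE 0.05, adjusted p = 1.44e-22). It then held level, with 3286 to 3506 CPM in WT fused myotubes (log2 0.04, adjusted p = 0.425).

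Chrng, on chr1:87204657-87212694 (plus strand), encodes the fetal gamma subunit and showed the steepest rise of the abundant subunits. Its CPM was 211, 202 and 226 in WT myoblasts, 1439.5, 1548 and 1633 in WT differentiated myotubes and 1339, 1335, 1391 and 1337 in WT fused myotubes. The KO-labelled libraries gave 195, 203 and 191 CPM at 24 h, 1723 and 1985 CPM at 48 h and 1336, 1305, 1280.4 and 1290.1 CPM at 72 h. Every 48 h library stood above every 72 h library, and these above every 24 h library. The 24 h to 48 h rise was 7.24-fold in WT (log2 2.86, SE 0.06) and 9.43-fold in KO-labelled cultures (log2 3.24, SE 0.06). The later decline was small in WT (log2 -0.19, SE 0.05, adjusted p = 8.1e-04) and larger in KO-labelled cultures (log2 -0.51, SE 0.05, adjusted p = 2.65e-09).

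Chrnd, on chr1:87190607-87200070 (plus strand), encodes the delta subunit and ends 4586 bases before Chrng begins. In WT it was 175, 178 and 188 CPM at 24 h, 619, 683 and 683 CPM at 48 h and 789.8, 772, 748 and 764 CPM at 72 h. It therefore rose at both steps, by log2 1.87 (SE 0.05) and then 0.22 (SE 0.04, adjusted p = 6.71e-05). In KO-labelled cultures it was 179.6, 184 and 182 CPM, then 753 and 862 CPM, then 791, 777, 799 and 808 CPM, with the second step at log2 -0.02 (adjusted p = 0.659). Chrnb1, on chr11:69784036-69795943 (minus strand), encodes the beta subunit. It rose from 148 ± 1.91 to 365 ± 22.2 CPM (SD, n = 3 each) and fell to 242 ± 6.86 CPM (SD, n = 4) in WT, a drop with log2 -0.59 (SE 0.04, adjusted p = 9.75e-14) that brought it part of the way back.

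Chrne, on chr11:70614883-70619216 (minus strand), encodes the adult epsilon subunit and appeared late. Its counts were 1, 0 and 0 in WT myoblasts, 3, 8 and 7 in WT differentiated myotubes, and 167, 134, 95 and 126 in WT fused myotubes. The KO-labelled libraries held 1, 0 and 2 counts, then 5 and 5, then 103, 113, 173 and 106. All 8 fused libraries lay far above all the others, in both labels. With exact 95% intervals for counting error only, WT fused myotubes held 26.9 times the WT 48 h level (16.8 to 45.7) and 544 times the 24 h level (97.3 to 21544). The KO-labelled ratios were 25.8 (13.9 to 54.2) and 219 (74.4 to 1064.5). The libraries at 0 allow up to 0.113 to 0.15 CPM, taken as 3 counts of each library. Chrne overlaps 4930544D05Rik on the opposite strand, which was assigned 0 counts in every library; whether reads of the shared stretch were counted to Chrne was not tested.

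The late appearance of Chrne did not replace Chrng. At 72 h Chrng RNA still exceeded Chrne RNA by a median of 141-fold in TPM in WT (range 96.1 to 171) and 120-fold in KO-labelled myotubes (range 102 to 133). At 48 h the medians were 4499-fold and 4414-fold. The log2 ratio of Chrng to Chrne differed between labels by -0.18 at 72 h (exact two-sided permutation test p = 0.429, smallest possible 0.0286) and by 0.14 at 48 h (exact p = 1, smallest possible 0.1, so this comparison cannot pass). As a share of the summed TPM of the 5 subunits, Chrne reached 0.248 ± 0.0679% (SD, n = 4) in WT fused myotubes. Chrng went from 19.7 ± 1.14% (SD, n = 3) in WT myoblasts to 34.9 ± 0.484% (SD, n = 3) at 48 h and 32.4 ± 0.886% (SD, n = 4) at 72 h, while Chrnb1 went from 14.8% to 10.5% and 6.36%. At 48 h the 2 KO-labelled libraries had a larger gamma share, 36.8 and 37.3%, than any WT library, 34.5 to 35.4%.

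**Figure D2:**
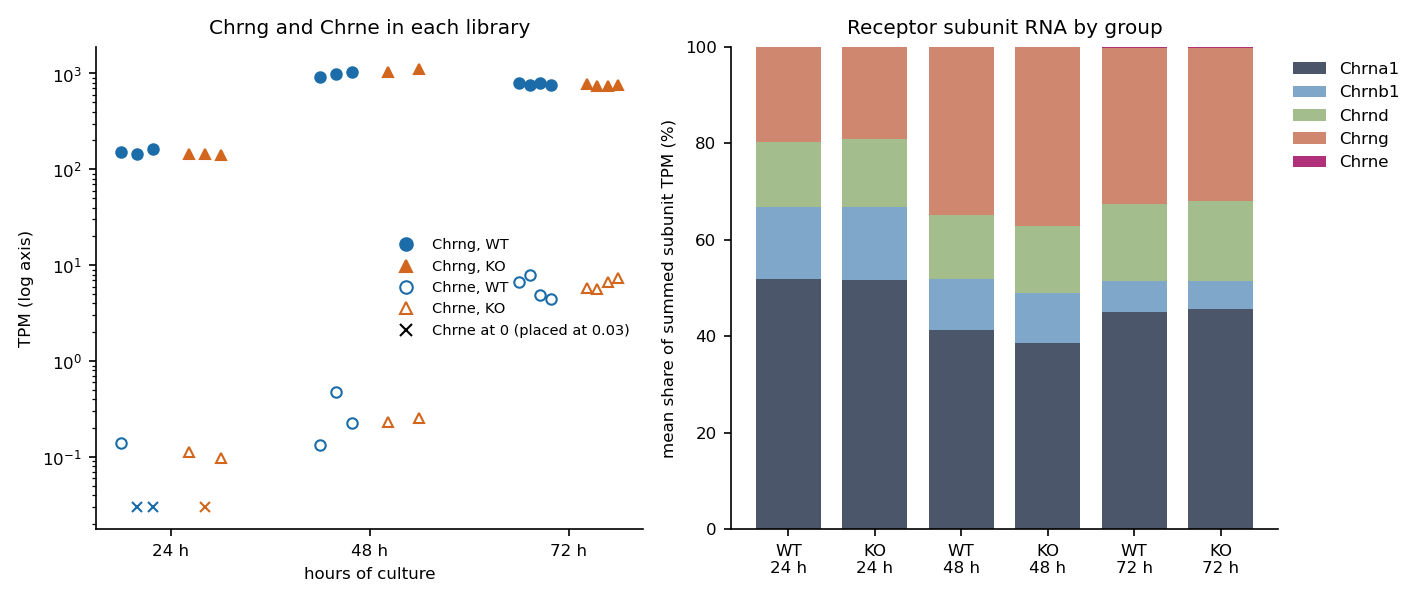
Left, TPM of Chrng (filled) and Chrne (open) in each library on a log axis against hours of culture, with crosses for Chrne at 0. Right, mean share of each subunit gene in the summed TPM of the 5 genes in each group; the Chrne share, 0.248% in WT fused myotubes, is barely visible at the top.

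The sequence before the start of 3 subunit genes is printed because their stage patterns part: Chrna1 and Chrng rose first and Chrne last. RefSeq promoter entries (GRCm38.p6) were matched for 7 of the 10 genes; Chrnd, Rapsn and Lrp4 had none. Each stretch lies within the 250 bases before the RefSeq start, is trimmed where an annotated exon begins, and reads 5′ to 3′ on the gene's strand. Capitals mark every CANNTG, the E-box letters, and every CCGGAA, the N-box letters, searched on both strands. CANNTG reads the same on both strands, CAGCTG is one form of CANNTG, and no other matches overlapped. The RefSeq start of Chrng lies inside the gene span given above.

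Chrna1, chr2:73580339-73580588, minus strand: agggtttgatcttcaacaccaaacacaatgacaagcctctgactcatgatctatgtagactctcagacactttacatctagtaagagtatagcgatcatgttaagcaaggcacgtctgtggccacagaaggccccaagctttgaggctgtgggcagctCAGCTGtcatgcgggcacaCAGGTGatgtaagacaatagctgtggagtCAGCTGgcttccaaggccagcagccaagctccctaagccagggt
Chrng, chr1:87205561-87205809, plus strand: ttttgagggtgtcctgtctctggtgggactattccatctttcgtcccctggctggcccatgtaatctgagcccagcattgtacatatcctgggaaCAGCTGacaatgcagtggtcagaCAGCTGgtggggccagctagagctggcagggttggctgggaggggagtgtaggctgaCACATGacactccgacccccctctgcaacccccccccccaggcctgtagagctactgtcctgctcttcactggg
Chrne, chr11:70619217-70619444, minus strand: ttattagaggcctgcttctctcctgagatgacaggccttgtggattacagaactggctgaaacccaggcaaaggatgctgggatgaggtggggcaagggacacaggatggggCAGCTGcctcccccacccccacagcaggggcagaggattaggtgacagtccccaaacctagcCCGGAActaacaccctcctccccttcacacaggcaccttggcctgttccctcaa

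Chrna1 and Chrng each held 3 CANNTG, of which 2 were CAGCTG, and no CCGGAA. In Chrna1 the CAGCTG copies began 92 and 44 bases before the start, and in Chrng 155 and 132 bases before it. Chrne held 1 CAGCTG, 138 bases before the start, and 1 CCGGAA, 76 bases before it. Over all 32851 windows of the same 250 bases, 66.2% held CANNTG, 13% held CAGCTG and 12% held CCGGAA or its reverse complement. Of the other matched members, Musk held 3 CANNTG with 1 CAGCTG and Chrnb1 held 3 CANNTG without CAGCTG. Agrn and Dok7, each with 2 RefSeq starts, held at most 1 CANNTG before a start and no CAGCTG. None of these 4 genes held CCGGAA. A match of letters is a description and not a bound site.

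Of the genes that cluster the receptor, those on the muscle side rose with the subunits. Musk, on chr4:58285960-58374303 (plus strand), encodes the kinase at the centre of the pathway. In WT it was 69.5, 69.2 and 72.9 CPM at 24 h, 241, 261 and 268 CPM at 48 h and 268, 274, 268 and 274 CPM at 72 h. It rose 3.64-fold by 48 h (log2 1.86, SE 0.04, adjusted p = 3.42e-24) and then stood at log2 0.08 (adjusted p = 0.0636). Dok7, on chr5:35056766-35087839 (plus strand), encodes the adaptor that activates MuSK and rose more, from 57.7 ± 4.30 to 281 ± 1.87 CPM (SD, n = 3 each), before falling to 159 ± 6.11 CPM (SD, n = 4; log2 -0.82, SE 0.04, adjusted p = 1.38e-15). Rapsn, on chr2:91035620-91045729 (plus strand), encodes the scaffold under the receptor and had the smallest rise of the 9, from 73.8 ± 5.47 to 150.04 ± 7.34 CPM (SD, n = 3 each; log2 1.02, SE 0.04), with 125 ± 1.84 CPM at 72 h (SD, n = 4). Gm13778, which overlaps Rapsn on the opposite strand, was at most 0.371 CPM, and the library kit's strand setting in counting is not given.

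Lrp4, on chr2:91457511-91513779 (plus strand), encodes the agrin receptor and peaked at 48 h. In WT it was 99.7, 108 and 111 CPM at 24 h, 362, 386 and 399 CPM at 48 h and 209, 189.6, 201 and 209 CPM at 72 h. In KO-labelled cultures it was 121, 116 and 126 CPM, then 339.8 and 333 CPM, then 225, 226, 220.2 and 225 CPM. No 2 of the 6 groups overlapped when ordered by mean, and the peak was lower and the flanks higher in KO-labelled cultures. The rise to 48 h was log2 1.85 (SE 0.05) in WT and 1.48 (SE 0.05) in KO-labelled cultures, and the later fall was -0.92 (SE 0.04) and -0.59 (SE 0.05).

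Agrn, on chr4:156165290-156197488 (minus strand), encodes agrin and was the gene that ran the other way. In WT it was 49.4, 53.6 and 53.0 CPM at 24 h, 22.2, 24.9 and 22.6 CPM at 48 h and 9.45, 10.5, 12.1 and 10.9 CPM at 72 h. In KO-labelled cultures it was 44.3, 45.3 and 47.1 CPM, then 16.7 and 17.8 CPM, then 9.97, 9.45, 9.07 and 9.72 CPM. The stages did not overlap within either label. The WT falls were log2 -1.16 (SE 0.06, adjusted p = 1.05e-16) and -1.12 (SE 0.07, adjusted p = 2.51e-14).

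Ordered per transcript length, Chrna1 and Chrng led in every group, and Agrn and Chrne came last. Musk and Rapsn lay close at 72 h, at 114 ± 4.24 and 99.2 ± 2.91 TPM (SD, n = 4) in WT fused myotubes, with all 4 Musk values above all 4 Rapsn values. In KO-labelled fused myotubes they were 100.2 ± 2.82 and 102 ± 3.21 TPM (SD, n = 4) and did not differ beyond their spread.

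Most of the 10 genes did not pass the test between the labels at a given stage. In myoblasts 2 of 10 passed the test, against 11.5% of all genes tested: Lrp4 was higher in KO-labelled myoblasts (4.85% of all genes were) and Agrn lower (6.69% were). In differentiated myotubes 4 of 10 passed, against 25.2%: Chrnd and Chrng were higher (11% of all genes were) and Lrp4 and Agrn lower (14.2% were). In fused myotubes 2 of 10 passed, against 13%: Lrp4 was higher (6.32% were) and Musk lower (6.72% were). The median absolute log2 difference of the 10 genes was 0.11, 0.11 and 0.07 at the 3 stages, beside 0.11, 0.17 and 0.11 over all genes. The 8 called differences were at most 1.34-fold.

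**Figure D3:**
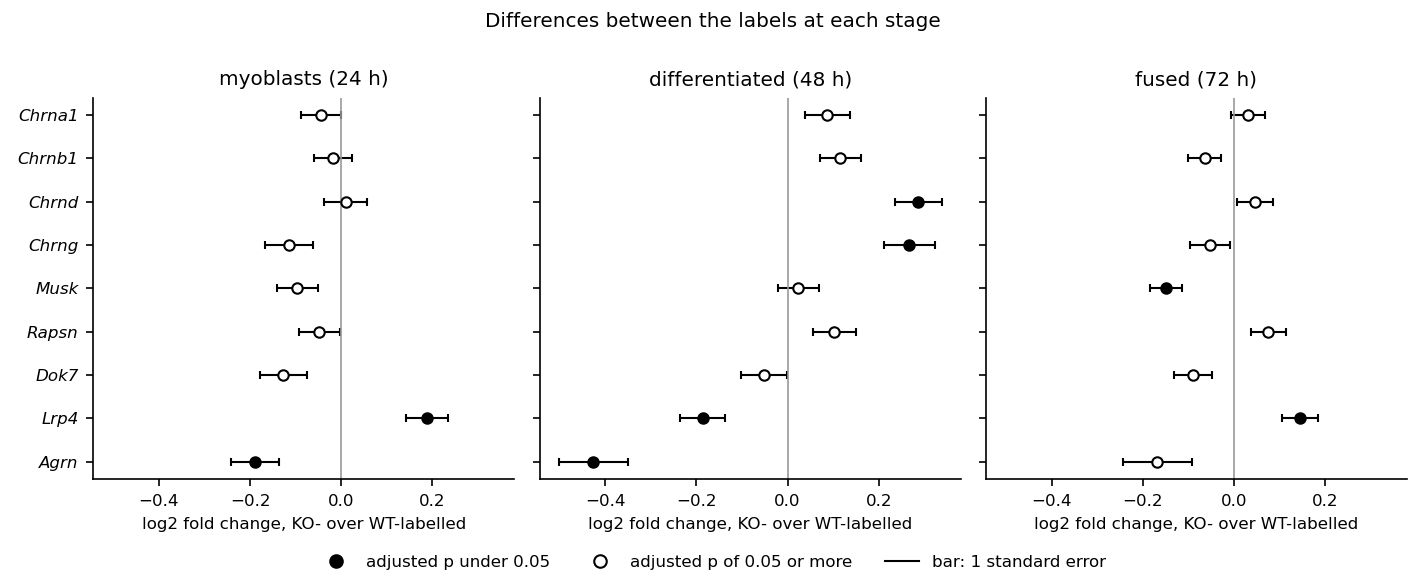
Log2 fold change of KO-labelled over WT libraries (x axis) for 9 of the 10 genes at each stage, with bars of 1 standard error and filled points where the adjusted p is under 0.05. Chrne is left out because its counts before 72 h are near 0; Lrp4 sits right of 0 at 24 h, left of it at 48 h and right of it at 72 h.

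In myoblasts Lrp4, the agrin receptor gene, was 1.14-fold higher in the KO-labelled libraries (log2 0.19, SE 0.05, adjusted p = 0.00781), and all 3 lay above all 3 WT libraries. Agrn was 1.14-fold lower (log2 -0.19, SE 0.05, adjusted p = 0.0161), again without overlap. Both calls are close to the threshold: that of Lrp4 was lost without WT replicate 1 (log2 0.14, adjusted p = 0.0695) or KO-labelled replicate 3 (0.16, adjusted p = 0.0589), and that of Agrn without WT replicate 2 or 3 or KO-labelled replicate 1 or 2 (-0.19 to -0.17, adjusted p 0.0555 to 0.0833). With an offset for effective transcript length, which removes shifts in which transcripts carry the counts, the Agrn difference was -0.08 (adjusted p = 0.73).

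The receptor subunit genes themselves did not pass in myoblasts, where Chrna1 differed by log2 -0.04 (adjusted p = 0.59), Chrnb1 by -0.02 (adjusted p = 0.848) and Chrnd by 0.01 (adjusted p = 0.933). Chrng stood at -0.11 (adjusted p = 0.173), Musk at -0.10 (adjusted p = 0.171) and Dok7 at -0.13 (adjusted p = 0.116); all 3 passed when only the 6 myoblast libraries were fitted (adjusted p = 0.0267, 0.035 and 0.039), and Dok7 also passed without WT replicate 2 (log2 -0.18, adjusted p = 0.0297) and by DESeq2 (adjusted p = 0.049). In the same myoblasts 7 of 10 muscle markers were lower in KO-labelled libraries and none higher (6.69% of all genes were lower and 4.85% higher), among them Myh3, the embryonic myosin heavy chain (log2 -0.92, adjusted p = 1.34e-10), and Myog, the myogenin gene (log2 -0.63, adjusted p = 4.09e-07). The part of these markers in the member values was not tested.

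In differentiated myotubes Chrnd was 1.22-fold higher in KO-labelled libraries (log2 0.29, SE 0.05, adjusted p = 1.15e-04) and Chrng 1.20-fold higher (log2 0.27, SE 0.06, adjusted p = 7.64e-04). These 2 neighbouring genes encode subunits of the fetal receptor, and in each of them both KO-labelled libraries lay above all 3 WT libraries in CPM. In TPM this held for Chrnd, at 389 and 420 against 363 to 379. Chrng overlapped in TPM, at 1024 and 1115 against 924 to 1027. Chrna1 stood at log2 0.09 (adjusted p = 0.206) and Chrnb1 at 0.12 (adjusted p = 0.0593), with overlapping ranges. Chrnb1 was called under 5 of the 27 alternatives, by DESeq2, with DESeq2 size factors, with a mean CPM of at least 1, and without WT replicate 2 or KO-labelled replicate 1 (log2 0.122 to 0.172, adjusted p 0.0184 to 0.0357). The group has only 2 libraries, and without KO-labelled replicate 2, the higher of the pair, the Chrng difference was 0.16 (adjusted p = 0.088), while Chrnd kept its call under all 27 alternatives tried (log2 0.185 to 0.383). Leaving out either of these libraries leaves 1, whose spread is then taken from the other groups.

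In the same stage Lrp4 was 1.14-fold lower (log2 -0.19, SE 0.05, adjusted p = 0.00567) and Agrn 1.34-fold lower (log2 -0.43, SE 0.08, adjusted p = 1.3e-04) in the KO-labelled libraries, each without overlap. With the effective-length offset Lrp4 stood at -0.14 (adjusted p = 0.0972) and Agrn at -0.21 (adjusted p = 0.24), and without KO-labelled replicate 2 Lrp4 stood at -0.17 (adjusted p = 0.0625). Of 10 muscle markers at 48 h, 3 were lower and 1 higher (14.2% and 11% of all genes were). Lower were Pax7, a stem cell gene (log2 -0.92, adjusted p = 1.01e-05), and the myogenic factor genes Myod1 (log2 -0.31, adjusted p = 1.54e-04) and Myf5 (log2 -0.19, adjusted p = 0.0122). The Myf5 call was lost without WT replicate 1 or either KO-labelled library (adjusted p 0.0775 to 0.0868). Mymk, which encodes the fusion protein myomaker, was higher (log2 0.28, adjusted p = 0.00129) but was not called without KO-labelled replicate 2 (log2 0.19, adjusted p = 0.0714). Their part in the values of the junction genes was not tested.

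In fused myotubes Musk was 1.11-fold lower in KO-labelled libraries, which gave 241, 257, 247 and 232 CPM against 268 to 274 CPM in WT (log2 -0.15, SE 0.04, adjusted p = 0.0054). The 4 KO-labelled libraries lay below all 4 WT libraries, and the call held under all 27 alternatives. Of 10 muscle markers at this stage 2 were lower and none higher (6.72% and 6.32% of all genes were): Myf5 (log2 -0.31, adjusted p = 3.18e-06) and Tnnt1 (log2 -0.30, adjusted p = 5.08e-05), both kept under all 27 alternatives. Their part in the Musk value was not tested. Lrp4 was 1.11-fold higher (log2 0.15, SE 0.04, adjusted p = 0.0137), but was not called with the effective-length offset (0.13, adjusted p = 0.0872) or without WT replicate 2 (0.12, adjusted p = 0.0607). Chrne was 6.79 ± 1.53 CPM in WT and 6.79 ± 0.507 CPM in KO-labelled fused myotubes (SD, n = 4 each; log2 0.01, SE 0.14, adjusted p = 0.975). Chrna1, Chrnb1, Chrnd, Chrng, Rapsn, Dok7 and Agrn also missed the threshold, with log2 differences between -0.17 and 0.08.

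The difference between labels itself changed with stage for some genes. From 24 h to 48 h it moved by log2 0.28 for Chrnd (SE 0.07, adjusted p = 0.00543), by 0.38 for Chrng (SE 0.08, adjusted p = 7.3e-04) and by -0.37 for Lrp4 (SE 0.07, adjusted p = 2.01e-04), so 3 of 10 genes passed against 19.1% of all genes (7.78% upward, 11.3% downward). By DESeq2 6 passed, with Chrna1 (log2 0.17, adjusted p = 0.0238), Chrnb1 (log2 0.17, adjusted p = 0.0368) and Rapsn (log2 0.19, adjusted p = 0.0298) added. From 48 h to 72 h it moved back by -0.24 for Chrnd, -0.32 for Chrng and 0.33 for Lrp4, and it also moved for Chrnb1 (-0.18, adjusted p = 0.0346) and Musk (-0.17, adjusted p = 0.0445), so 5 of 10 passed against 14.8% of all genes (8.27% upward, 6.53% downward). Both moves share the 48 h libraries, so the return is not independent of the first move. From 24 h to 72 h 0 of 10 passed by edgeR, against 10.3% of all genes (5.75% upward, 4.55% downward), with 1 at an unadjusted p under 0.05 and 0 by DESeq2. Without KO-labelled 48 h replicate 2, the Chrnd move was 0.17 (adjusted p = 0.111) and then -0.14 (adjusted p = 0.204), and the second Chrng move was -0.21 (adjusted p = 0.0733). With the effective-length offset the second Chrnd move was -0.17 (adjusted p = 0.123). The Chrnb1 call was lost under 9 of the 27 alternatives and the Musk call under 17, among them leaving out any 1 of the 4 WT fused libraries for Musk. Lrp4 kept both moves under all 27 alternatives. Of the 10 muscle markers, all 10 moved in the first comparison (7 upward, 3 downward), 4 in the second (2 upward, 2 downward; 1 with the effective-length offset) and 6 from 24 h to 72 h (5 upward, 1 downward). Their part in the moves of the junction genes was not tested.

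Musk RNA changed in its exons as well as in amount. A 24-nt exon at chr4:58356482-58356505 and a 30-nt exon at chr4:58327326-58327355 are each present in some annotated transcripts. Both are shown in capitals with 15 bases of the neighbouring exons, read from the annotated transcripts, together with the junction that forms when the 24-nt exon is skipped.

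Musk with the 24-nt exon: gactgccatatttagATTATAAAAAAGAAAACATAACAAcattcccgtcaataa
Musk without the 24-nt exon: gactgccatatttagcattcccgtcaataa
Musk with the 30-nt exon: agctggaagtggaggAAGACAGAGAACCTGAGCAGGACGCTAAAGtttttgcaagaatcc

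Transcripts with the 24-nt exon held 29.9, 33.2 and 23.7% of Musk counts in WT myoblasts, 65.4, 63.9 and 60.4% in WT differentiated myotubes and 62.6 to 63.8% in WT fused myotubes. In KO-labelled cultures the shares were 23.5, 39.0 and 28.7%, then 59.7 and 59.6%, then 59.0 to 66.1%. Every myoblast library lay below every myotube library, and the labels overlapped at 24 h and 72 h, while at 48 h both KO-labelled libraries lay just below the 3 WT libraries. The transcript with neither exon, ENSMUST00000102893, held between 28.7 and 45.4% in WT myoblasts, between 27.9 and 43.3% in the KO-labelled ones, and at most 0.448% in any myotube library. The share with the 30-nt exon stayed between 26.4 and 39.4% in all 19 libraries. These shares come from estimated counts divided between similar transcripts, and they are given without a test.

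Agrn transcripts shifted too, at low counts. Agrin made by neurons carries small exons near its end that give it strong receptor-clustering activity, while agrin from muscle mostly lacks them. The protein-coding transcript ENSMUST00000105575 holds a 24-nt exon at chr4:156168546-156168569 and a 33-nt exon at chr4:156167777-156167809, and ENSMUST00000105574 joins the flanking exons directly. They are printed on the gene's strand, with both exons in capitals.

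Agrn with the 24-nt and 33-nt exons: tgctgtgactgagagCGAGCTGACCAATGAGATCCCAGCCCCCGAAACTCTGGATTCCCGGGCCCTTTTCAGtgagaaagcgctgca
Agrn without them: tgctgtgactgagagtgagaaagcgctgca

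The transcript with both exons held 3.06 ± 1.43% of Agrn counts in WT myoblasts (SD, n = 3), 19.2 ± 7.84% at 48 h (SD, n = 3) and 41.1 ± 8.62% at 72 h (SD, n = 4). In KO-labelled cultures it held 2.28 ± 2.71% (SD, n = 3), then 0 and 34.8%, then 43.5 ± 8.13% (SD, n = 4). The 72 h libraries lay above the 24 h libraries in both labels, but the 2 KO-labelled 48 h libraries spanned the range from 0 upward. The counts behind these shares were 0 to 162 in a library. The same transcript also holds a 12-nt exon at chr4:156169546-156169557, so these data do not tell whether reads fell on the 12-nt exon or on the other pair.

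**Figure D4:**
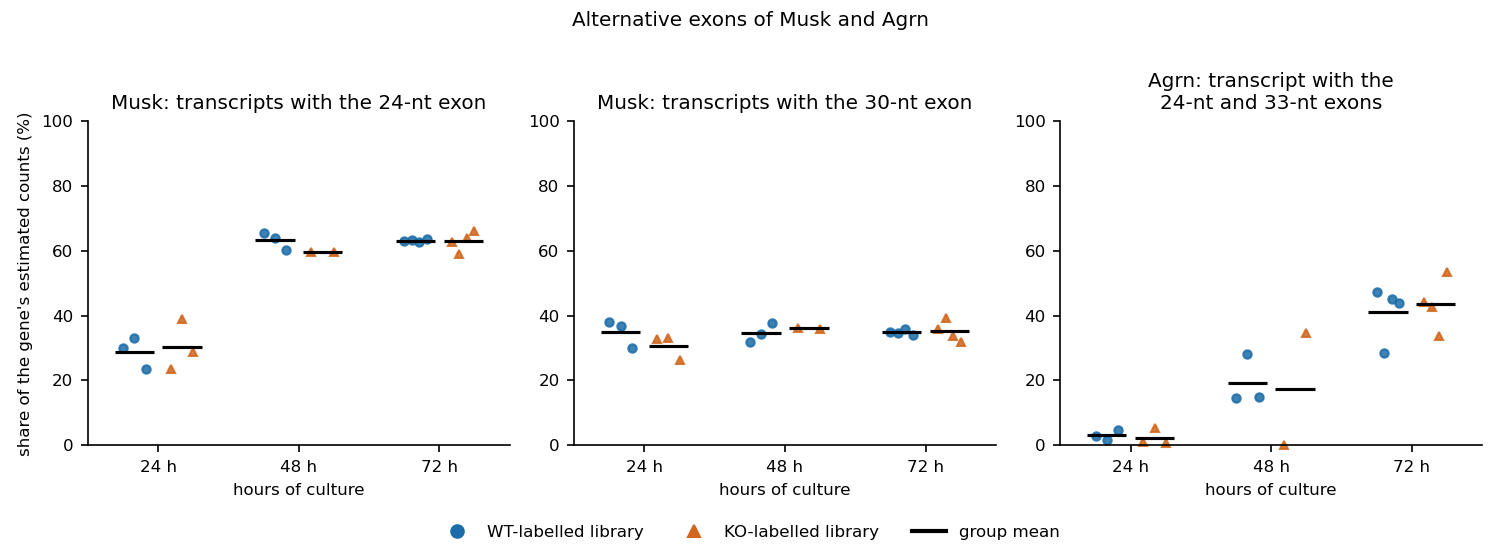
Share of the gene's estimated counts (y axis, percent) in transcripts with the 24-nt exon of Musk, the 30-nt exon of Musk and the 24-nt and 33-nt exons of Agrn, against hours of culture, with 1 point per library and bars at group means. The first panel steps up from 23.5 to 39.0% in myoblasts to 59.0 to 66.1% in myotubes, the second stays between 26.4 and 39.4%, and the third climbs with a wide spread at 48 h.

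At 48 h a larger part of the RNA of 4 of the genes was counted in transcripts annotated as retaining an intron. These genes were picked out after their values were seen, and the other members with such transcripts are given after them. For Chrnb1 the WT shares were 1.68% at 24 h, 6.31% at 48 h and 0.70% at 72 h on average, and for Chrng 0.435%, 2.06% and 0.11%. Dok7 went from 0.334% to 2.35% and 0.147%, and Agrn from 3.63% to 13.3% and 4.00%. In Chrnb1, Chrng and Dok7 each 48 h library of either label exceeded every 24 h and 72 h library of that label, whereas in KO-labelled Agrn 1 fused library reached 13.3%. Rapsn was also highest on average at 48 h in both labels, with 0, 0.643 and 0.0611% at 24, 48 and 72 h in WT and 0.174, 0.475 and 0% in KO-labelled cultures. Chrnd was highest at 48 h in WT (3.07, 4.21 and 3.64%) and at 72 h in KO-labelled cultures (3.13, 3.83 and 4.11%). Chrne was counted too thinly before 72 h for its share to be read. Over all genes the retained-intron share was 2.54 to 2.88% at 24 h, 2.81 to 3.13% at 48 h and 1.69 to 1.75% at 72 h. In KO-labelled myoblasts the share was higher than in WT for Chrng (0.769 to 1.13% against 0.212 to 0.59%) and Agrn (6.45 to 8.34% against 3.09 to 4.39%), and over all genes it was 2.76 to 2.88% against 2.54 to 2.56%. No test was made of these shares, and whether they moved the gene totals was not tested.

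**Figure D5:**
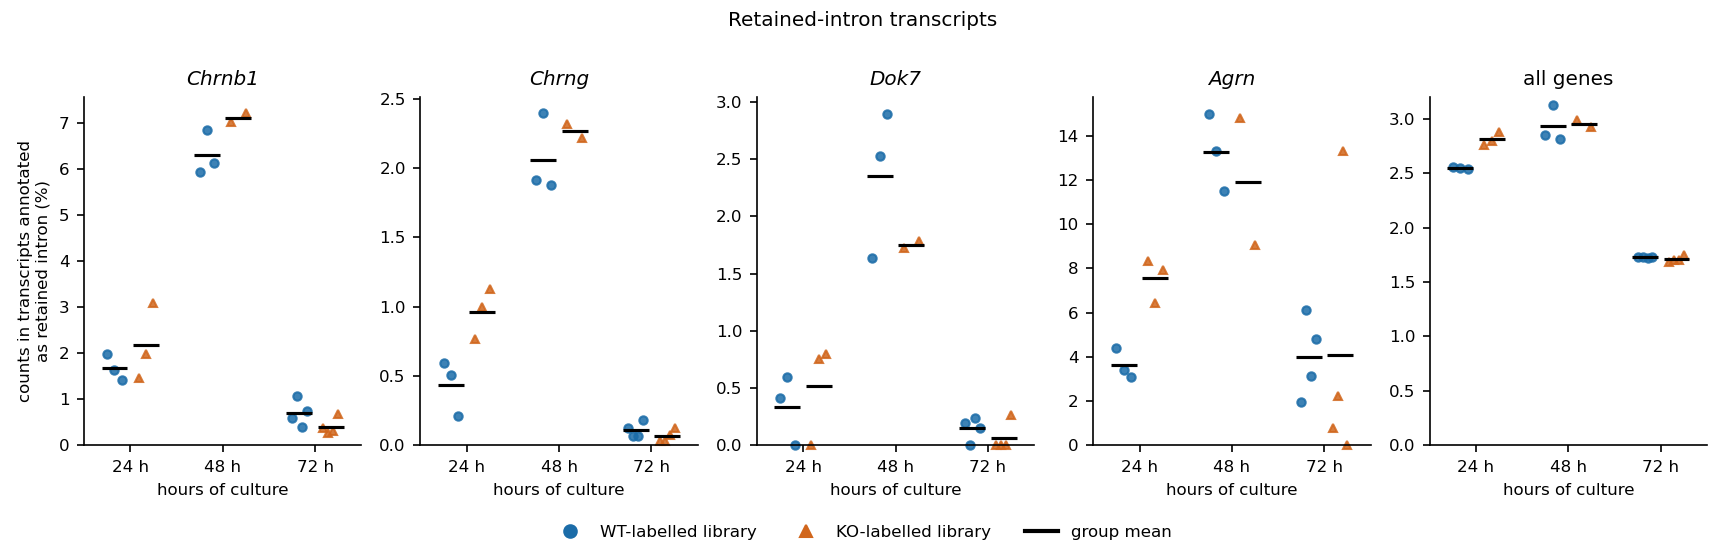
Percent of a gene's estimated counts in its retained-intron transcripts (y axis, each panel from 0) against hours of culture for Chrnb1, Chrng, Dok7, Agrn and all genes together, with 1 point per library and bars at group means. Points for Chrnb1, Chrng and Dok7 peak at 48 h in both labels, where Chrnb1 reaches 5.95 to 7.22%.

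Across the 19 libraries the level of each gene was compared with every other gene by Pearson's r of log2 CPM, as a description that stage dominates. Nearest to Chrna1 were Mid1 (r = 0.999), Synpo2 and Laptm4a, and nearest to Chrng were Dysf, the dysferlin gene of membrane repair (r = 0.999), Calcoco1 and Mtss1l. Hif1an, Dusp3 and Reep1 were nearest to Chrnd. Musk was nearest to Bin1, which shapes muscle membranes (r = 0.998), Ubr3 and Tnnt1, the slow troponin T gene. Ulk3, Ubxn4 and Rhbdf1 were nearest to Chrnb1, Dusp13, Herc3 and Gga2 to Rapsn, and Fgfbp1, Ccdc88c and Ankrd44 to Dok7. Slc25a12, Klhl8 and Pdpr were nearest to Chrne (r = 0.995 to 0.996). Lrp4, with its peak, was nearest to Nes, the nestin gene (r = 0.994), Adamts1 and Tbx18, and only 4 genes exceeded r = 0.99 with it, against 361 with Chrna1. Agrn was nearest to Ganab, Actg1 and Ctnnb1 (r = 0.995 to 0.996).

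A list of 32 further genes of the postsynaptic apparatus moved with stage in both directions. From 24 h to 48 h in WT 19 rose and 10 fell, and from 48 h to 72 h 15 rose and 10 fell, where 42.4% and 42.6% of all genes rose and fell in the first step and 37.4% and 37.7% in the second. Scn4a, the muscle sodium channel gene, rose by log2 5.44 and then 1.75, and reached 203 ± 6.62 CPM (SD, n = 4) in WT fused myotubes. Colq, which encodes the collagen tail of acetylcholinesterase, rose by log2 5.05 in the first step. Ache, which encodes the enzyme itself, came later, with 1.06 ± 0.0964, 9.21 ± 1.14 and 105 ± 17.1 CPM at the 3 stages in WT (SD, n = 3, 3 and 4; log2 3.52 in the second step, adjusted p = 1.61e-20). Erbb3 and Sntb1, for a neuregulin receptor and a syntrophin, rose by log2 4.59 and 4.42 in the first step. Erbb4, for another neuregulin receptor, rose by log2 4.05 in the second, and Macf1, which encodes a cytoskeletal linker, fell by 1.71 on the log2 scale.

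Between the labels 5, 13 and 7 of these 32 genes passed at 24, 48 and 72 h, with 1, 7 and 5 higher, against 11.5%, 25.2% and 13% of all genes called and 4.85%, 11% and 6.32% higher. Colq was lower in KO-labelled myoblasts (log2 -1.09, SE 0.23, adjusted p = 0.00183) and higher in KO-labelled fused myotubes, at 137 ± 3.41 against 106 ± 4.23 CPM (SD, n = 4 each; log2 0.37, SE 0.05, adjusted p = 2.05e-06). Phldb2, which encodes a protein of the cell cortex that anchors microtubules at receptor clusters, was lower in KO-labelled myotubes, by log2 -1.04 at 48 h (SE 0.07, adjusted p = 4.33e-11) and -0.46 at 72 h (SE 0.05, adjusted p = 6.69e-07). Erbb3 and Dag1, for a neuregulin receptor and dystroglycan, were lower in KO-labelled myoblasts (log2 -0.31 and -0.22). In fused myotubes Erbb3 was higher in KO-labelled libraries (log2 0.125, adjusted p = 0.0235), a call lost under 5 of the 27 alternatives. At 48 h Dvl1, which encodes a Wnt pathway adaptor, was higher (log2 0.34) and Ache lower (log2 -0.60, adjusted p = 0.0265); Ache lost its call with the effective-length offset and without any 1 of 4 of the 5 libraries of that stage (adjusted p 0.0514 to 0.161). Erbb2, for a neuregulin co-receptor, was higher in KO-labelled fused myotubes (log2 0.23, adjusted p = 1.97e-04). The 13 calls at 48 h became 5 without KO-labelled replicate 2 and 7 with the effective-length offset.

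Of 14 genes for factors that act on receptor genes and other genes that respond to muscle activity, 13 were tested, and all 13 changed from 24 h to 48 h in WT, 9 of them upward, a step in which 85% of all genes changed and 42.4% rose. Myog rose from 114 ± 8.88 to 2479 ± 108 CPM (SD, n = 3 each) and fell to 885 ± 52.7 CPM (SD, n = 4), while Mef2c rose at both steps, by log2 4.98 and 1.12. Etv5, an Ets factor gene, was 98.1 ± 0.891, 30.3 ± 0.261 and 187 ± 11.6 CPM at 24, 48 and 72 h (SD, n = 3, 3 and 4; log2 2.62 in the second step). Between the labels 4, 5 and 2 of the 13 passed at 24, 48 and 72 h, against 11.5%, 25.2% and 13% of all genes called. Of these calls 0, 1 and 1 were higher, where 4.85%, 11% and 6.32% of all genes were higher. The lower calls were 4, 4 and 1, where 6.69%, 14.2% and 6.72% of all genes were lower. In KO-labelled myoblasts Myog, Ncam1 (the neural cell adhesion gene, log2 -0.44) and Mef2c (log2 -0.41) were lower, and at 48 h Mef2c was higher (log2 0.37). At 72 h Mef2c was higher (log2 0.16, adjusted p = 0.0157) and Hdac4, for a histone deacetylase, lower (log2 -0.16, adjusted p = 0.0467). Mef2c was not called with the effective-length offset (adjusted p = 0.161) or without KO-labelled replicate 3 (adjusted p = 0.0612), and Hdac4 was not called under 14 of 27 alternatives (adjusted p 0.0505 to 0.755).

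Of 8 genes for glycosylation and receptor assembly, 7 were tested and 5 changed from 24 h to 48 h in WT, against 85% of all genes (42.4% higher, 42.6% lower). Gfpt1, which feeds protein glycosylation and is a gene of inherited myasthenia, was higher (log2 0.92) and 4 were lower. Alg2, of the same group of disorders, was lower in KO-labelled libraries at 24, 48 and 72 h (log2 -0.32, -0.36 and -0.35), with 24.8 ± 0.0801 against 31.0 ± 1.05 CPM in myoblasts (SD, n = 3 each). With the effective-length offset the 24 h and 48 h values were -0.29 (adjusted p = 0.0645) and -0.09 (adjusted p = 0.654). Of 11 neuronal nicotinic subunit genes 3 passed the filter, and 0 of them passed between the labels at any stage by edgeR, with 1, 0 and 0 at an unadjusted p under 0.05 at 24, 48 and 72 h and 0 by DESeq2. Of all genes 11.5%, 25.2% and 13% passed at these stages, and with 3 genes tested 0 calls cannot be told apart from those shares. Chrna7, for the alpha subunit of a neuronal receptor, was 1.38 ± 0.0354 CPM in WT myoblasts and 0.0566 ± 0.0271 CPM in WT differentiated myotubes (SD, n = 3 each; log2 -4.51, adjusted p = 3.47e-10). Summed over the 11 genes the level never exceeded 2.49 CPM in a library.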

How the data were processed

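RNA was extracted with an RNeasy plus micro kit and libraries were made with a TruSeq mRNA kit, per the labels. The submitters' processing notes name bcl2fastq 2.20, fastp 0.20.0, kallisto 0.46.1, edgeR 3.36 and GRCm38.p6. The authors deposited, per the file headers, an estimated count (expected count) and a TPM value for each of 121843 transcripts in each library. Transcripts were matched to GENCODE M21 (121018 matched, 120744 with the same length), and unmatched ones held 0.255 to 0.507% of counts. Estimated counts were summed per gene, rounded and tested with edgeR 4.0.16 in R 4.3.3 (TMM, filterByExpr, quasi-likelihood, all 19 libraries in 1 fit, Benjamini-Hochberg over 15123 genes, threshold 0.05) in 12 comparisons. Deposited TPM values were summed per gene and used for levels between genes and for the Chrng to Chrne ratio, with exact permutation tests. The fit was checked on simulated counts. A total of 27 alternatives were run, including DESeq2 1.42.0. Depth limits the precision of Chrne and of transcript shares.

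The members and the gene lists were chosen with earlier results of these data known. Genes were named by rule: all 10 members, up to 4 called genes with the largest change per list and comparison, the 3 most alike genes per member, and Glud1. File names carry KO for both groups, with an added T for the Glud1KO-labelled libraries; groups follow the labels. Replicate libraries of a group differed by more than counting noise, so none was merged. A few genes that the rule names are not reported here.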

Additional observations from a re-analysis of the deposited data

Results flagged for a closer look

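A WT fused library, replicate 3, had the highest Chrng level of its group, 1391 CPM, with the other 3 at 1335 to 1339 CPM; chance alone marks about 1 in 20 of such groups, and 20 groups were examined in this way. Its distance is small beside the change from 24 h to 48 h.

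For 8 values the difference between the labels was itself different between stages by an interaction term in edgeR. From 24 h to 48 h they were 0.277 for Chrnd, 0.382 for Chrng and -0.374 for Lrp4 on the log2 scale. From 48 h to 72 h they were -0.18 for Chrnb1, -0.24 for Chrnd, -0.319 for Chrng, -0.171 for Musk and 0.332 for Lrp4. Both sets rest on the 5 libraries of the 48 h stage, of which 2 are KO-labelled.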

How the results depend on the processing

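Of 3235 member values recomputed under the alternatives, 3130 kept their direction and their side of the threshold, 43 lost a call, 29 gained one and 33 turned direction, 0 of them called in either fit; 5 DESeq2 values for Chrne had no adjusted p. All stage changes of the members from 24 h to 48 h and from 24 h to 72 h kept 10 calls when any 1 library was left out. With the effective-length offset the members called between the labels were 1, 2 and 1 at 24, 48 and 72 h (2, 4 and 2 without it), and fitting only the libraries compared gave 5 in myoblasts. Leaving out 1 library gave 1 to 2, 2 to 5 and 1 to 2. The change of the label difference from 24 h to 48 h had 3 members called, 6 by DESeq2 and 2 to 4 with 1 library left out; that from 48 h to 72 h had 5, and 3 with library size only, 3 with no filter on low counts, 3 with only the libraries compared and 1 to 5 with 1 library left out. The Chrng to Chrne log2 ratio difference ranged from -0.344 to 0.534 at 48 h and from -0.338 to -0.06 at 72 h with 1 library left out. The cause of these shifts was not tested. Musk in KO-labelled cultures from 48 h to 72 h, not called (-0.093, adjusted p = 0.058), was called under 9 alternatives (-0.225 to -0.094).

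Values that turned direction were as follows, on the log2 scale. Between the labels in myoblasts, Chrnb1 went from -0.018 to 0.009 with the effective-length offset, and Chrnd from 0.01 to -0.01 with DESeq2 size factors, -0.01 by DESeq2 and -0.002 with only the libraries compared. With library size only, Musk between the labels at 48 h was -0.033, Chrna1 in WT from 48 h to 72 h was -0.032, and the changes of the label difference from 48 h to 72 h were 0 for Chrna1, 0.028 for Rapsn and 0.018 for Dok7. With the offset that change was 0.107 for Chrne and 0.011 for Dok7, and that from 24 h to 72 h was -0.116 for Agrn. Leaving out 1 library gave ranges across 0. Between the labels these were -0.012 to 0.042 for Chrnd and -0.095 to 0.01 for Rapsn in myoblasts, -0.132 to 0.383 for Chrne and -0.012 to 0.056 for Musk at 48 h, and -0.107 to 0.129 for Chrne at 72 h. From 48 h to 72 h they were -0.001 to 0.064 for Chrna1 in WT, and -0.086 to 0.056 for Chrna1 and -0.118 to 0.079 for Chrnd in KO-labelled cultures. For the label difference from 48 h to 72 h they were -0.126 to 0.016 for Chrna1, -0.369 to 0.145 for Chrne, -0.068 to 0.009 for Rapsn and -0.09 to 0.014 for Dok7. From 24 h to 72 h they were -0.01 to 0.091 for Dok7, -0.076 to 0.002 for Lrp4 and -0.04 to 0.075 for Agrn.

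With the effective-length offset, calls over all genes between the labels went from 1746 to 584, 3811 to 2149 and 1972 to 823 at 24, 48 and 72 h, and those for changes in the label difference from 2891 to 1454, 2238 to 982 and 1557 to 665. Library size alone moved the median of all genes to -0.23 for WT and -0.31 for KO-labelled 48 h against 24 h, and to -0.33 and -0.35 for 72 h against 24 h. Of 117 values of genes named from the lists, 97 kept their call under all alternatives; 1 turned direction, Dtnb at 48 h, from -0.523 to 0.261 with the effective-length offset (adjusted p = 0.74). Same-numbered replicates did not deviate together over all tested genes (r -0.0535 to 0.0564 over 41 pairs). What the numbers mark is not stated, and these r values cannot exclude a shared animal, day or batch. With the replicate number as a block, Musk in WT from 48 h to 72 h was called (0.089, adjusted p = 0.0421; 0.0636 without it), no other member call changed, and calls over all genes between the labels were 1666, 3661 and 1858. Calls in the gene lists moved by over 1.5 times for the postsynaptic list at 24 h (5 to 8 by DESeq2) and 72 h (7 to 4 with the offset), and for muscle markers at 72 h (2 to 5 with no filter, 4 with only the libraries compared, 4 with the block) and 48 h (4 to 2 without KO-labelled replicate 2). Depth limits Chrne before 72 h and the Agrn transcript shares.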
